A study of Mus musculus with 2 samples.

Results

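The replication-dependent histone genes encode the linker histone H1 and the core histones H2A, H2B, H3 and H4, and the ChIP-seq reads at their transcription start sites (TSSs) in mES cells are described here. Members were the protein-coding genes whose symbol starts with Hist1h, Hist2h, Hist3h or Hist4h in the GENCODE annotation of mm9, the genome build of the deposited reads. The choice used symbols and no measured value, and it gave 67 of the 22359 protein-coding genes. Of these, 6 encode H1, 19 H2A, 18 H2B, 11 H3 and 13 H4. The Hist1 genes lie on chromosome 13, where 23 form a first segment, 31 a second segment and 1, Hist1h2al, stands alone. There are 9 Hist2 genes on chromosome 3, 2 Hist3 genes on chromosome 11 and 1 Hist4 gene on chromosome 6.

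The chromatin came from E14 cells, a murine ES cell line grown with LIF, for which the labels give the background strain C57BL/6. It was immunoprecipitated with anti-ZNF322 antibody in the Zfp322a library or with rabbit IgG in the control library, and no other treatment or genotype distinguished the libraries. There was 1 library for each antibody, so no difference given here has a replicate check, and each test compares these libraries rather than conditions. Mapped reads numbered 5187475 for Zfp322a and 4843481 for IgG, of which 80.0% and 80.1% had a mapping quality of at least 25 and 15.8% and 15.7% a mapping quality of 0. A mapping quality of 0 means that a read fits more than 1 place of the genome equally well.

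Replication-dependent histone genes supply the proteins that package newly copied DNA, and their transcription rises when cells enter S phase. Their mRNAs end in a stem-loop instead of a poly(A) tail, and they are made in a nuclear structure, the histone locus body, that is built around the coactivator NPAT. The genes are short, most lack introns, and they sit in clusters of near-identical copies, with many H2A and H2B genes arranged head to head across a shared promoter. ES cells spend much of their cycle in S phase and express these genes strongly.

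Because the copies are so alike, the sequence of a read often does not tell which gene it came from. The stretches below are, for each histone class, the 36 bases of coding sequence with the most exact copies in mm9, at the length of the reads, and they show how far the classes differ in this respect.
H1, from Hist1h1b: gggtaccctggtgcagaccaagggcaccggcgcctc
H2A, from Hist1h2ai: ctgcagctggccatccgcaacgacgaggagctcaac
H2B, from Hist3h2ba: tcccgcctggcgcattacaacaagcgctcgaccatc
H3, from Hist1h3h: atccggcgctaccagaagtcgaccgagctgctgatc
H4, from Hist1h4j: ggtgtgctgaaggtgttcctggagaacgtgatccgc
The H1 stretch (chr13:21872119-21872154, minus strand) had 3 exact copies in mm9 and lay in the coding sequence of 3 of the 6 H1 genes. The H2A stretch (chr13:21808540-21808575, plus strand) had 21 copies and lay in 17 of the 19 H2A genes. The H2B stretch (chr11:58762676-58762711, plus strand) had 17 copies and lay in 16 of the 18 H2B genes. The H3 stretch (chr13:21809681-21809716, plus strand) had 12 copies and lay in 11 of the 11 H3 genes. The H4 stretch (chr13:21827133-21827168, plus strand) had 11 copies and lay in 11 of the 13 H4 genes. A read of any of these stretches cannot be assigned to a gene.

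The windows examined reached from -1000 to +1000 bp of the TSS of each gene, and a read was counted where its 5′ end fell. In these windows a median of 76.0% of the 36-base stretches were unique in mm9, against 99.0% over all protein-coding windows. In coding sequence that lay in 1 part and reached into the window, the median unique share was 85.7% for 6 H1 genes, 25.5% for 13 H4 genes, 21.0% for 13 H2B genes, 13.5% for 19 H2A genes and 13.1% for 11 H3 genes. Windows of neighbouring members overlap, so the 67 windows merge into 40 regions. Only 20 members were alone in their region, while 47 shared reads with a neighbour. Over the merged regions, 51.1% of the Zfp322a reads (95% Clopper-Pearson interval 48.4 to 53.8) and 47.6% of the IgG reads (43.8 to 51.4) had a mapping quality of 0. In the windows of the other protein-coding genes these shares were 10.6% and 13.5%. All intervals given here cover counting error only. The main results are therefore given with all reads and with the reads of mapping quality of at least 25, called the stricter reads.

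Promoters of some members discussed below are shown next, with the octamer ATTTGCAT, the CCAAT box CCAAT and the TATA box TATAAA in capitals on either strand. They were not chosen as places where the reads are densest. The first lies between the TSSs of the divergent genes Hist2h2ac and Hist2h2be (chr3:96024804-96025043, plus strand), beside the highest fold of peak heights among the members, and is unique in mm9 at the length of a read. The second lies between Hist1h2bq and Hist1h2ao (chr13:21902054-21902235, plus strand), belongs to a duplicated block and holds no unique 36-base stretch. The third is the 250 bp before the TSS of Hist1h1c (chr13:23830426-23830675, plus strand), the member that was called with either set of reads.
Hist2h2ac-Hist2h2be: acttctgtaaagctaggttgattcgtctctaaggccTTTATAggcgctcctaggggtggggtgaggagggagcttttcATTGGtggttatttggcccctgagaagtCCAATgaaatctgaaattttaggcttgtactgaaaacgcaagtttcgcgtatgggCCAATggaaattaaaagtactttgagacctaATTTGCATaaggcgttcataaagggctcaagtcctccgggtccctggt
Hist1h2bq-Hist1h2ao: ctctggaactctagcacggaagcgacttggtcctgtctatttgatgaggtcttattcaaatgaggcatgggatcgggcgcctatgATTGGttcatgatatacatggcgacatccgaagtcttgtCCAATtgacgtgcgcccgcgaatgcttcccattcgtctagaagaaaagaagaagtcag
Hist1h1c: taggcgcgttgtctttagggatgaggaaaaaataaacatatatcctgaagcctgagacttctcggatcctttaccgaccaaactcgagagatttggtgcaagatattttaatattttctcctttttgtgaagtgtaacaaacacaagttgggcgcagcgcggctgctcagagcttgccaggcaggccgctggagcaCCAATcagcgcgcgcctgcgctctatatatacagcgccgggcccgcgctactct
Octamers are a known element of H2B promoters and are bound by POU factors such as Oct1, the product of Pou2f1. In the 300 bp from 250 bp before to 50 bp after each TSS, searched on both strands, the octamer was found at 8 of 18 H2B, 7 of 19 H2A and none of the H1, H3 and H4 genes, and at 1.72% of all 22359 promoters of this length. CCAAT was found at 57 of 67 members (85.1%) against 37.6% of all promoters, and at 4 of the 13 H4 genes. TATAAA was found at 37 members (55.2%) against 13.4%. The letters of these motifs do not contain one another, head-to-head genes share a promoter and so a match, and a match is a description of the letters only.

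With all reads, the histone windows held more reads than most promoters in both libraries, and the excess was larger in the Zfp322a library. Of the stricter reads the merged member regions held 559 from Zfp322a and 315 from IgG in 101215 bp. The merged windows of the other genes held 260273 and 174144 such reads in 42426732 bp, more per base in both libraries than the members. With all reads, the median histone window had 28 Zfp322a reads and 13 IgG reads, against 12 and 8 over all protein-coding windows. At least 28 Zfp322a reads were found in 10.3% of all windows and at least 13 IgG reads in 26.9%. More Zfp322a than IgG reads were counted at 64 members, equal numbers at 2 and more IgG reads at 1. The fold per read, that is the ratio of Zfp322a to IgG reads after division by the library totals, had a median of 1.82 over the members and 1.27 over all windows, with 0.5 read added to each count. The merged member regions together held 1335 Zfp322a and 687 IgG reads, a fold of 1.81 (95% interval 1.65 to 1.99). For the merged windows of the 22292 other genes the fold was 1.34 (1.33 to 1.35).

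Each window with at least 10 reads was tested two-sided by an exact binomial test of its reads against the library totals, with Benjamini-Hochberg adjustment over all 17173 such windows, and all 67 members were among them. With all reads, 10 members were higher in the Zfp322a library at an adjusted p under 0.05, against 4.71% of all windows tested, and 0 were lower, against 0.0815%. At an unadjusted p under 0.05, 34 members were higher and 0 lower. The share of all windows at that threshold was not counted, so this and the later unadjusted counts have no background here. The 10 called members lay in 8 merged regions, and 5 of them belonged to Hist2. Per class, the calls were 2 of 6 H1, 4 of 19 H2A, 2 of 18 H2B, 1 of 11 H3 and 1 of 13 H4 genes. All 10 calls were lost when the libraries were scaled by their reads in protein-coding TSS windows, which lowered the median fold over all windows from 1.27 to 0.947 and that of the members to 1.36; at an unadjusted p under 0.05, 12 members then remained higher.

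**Figure D1:**
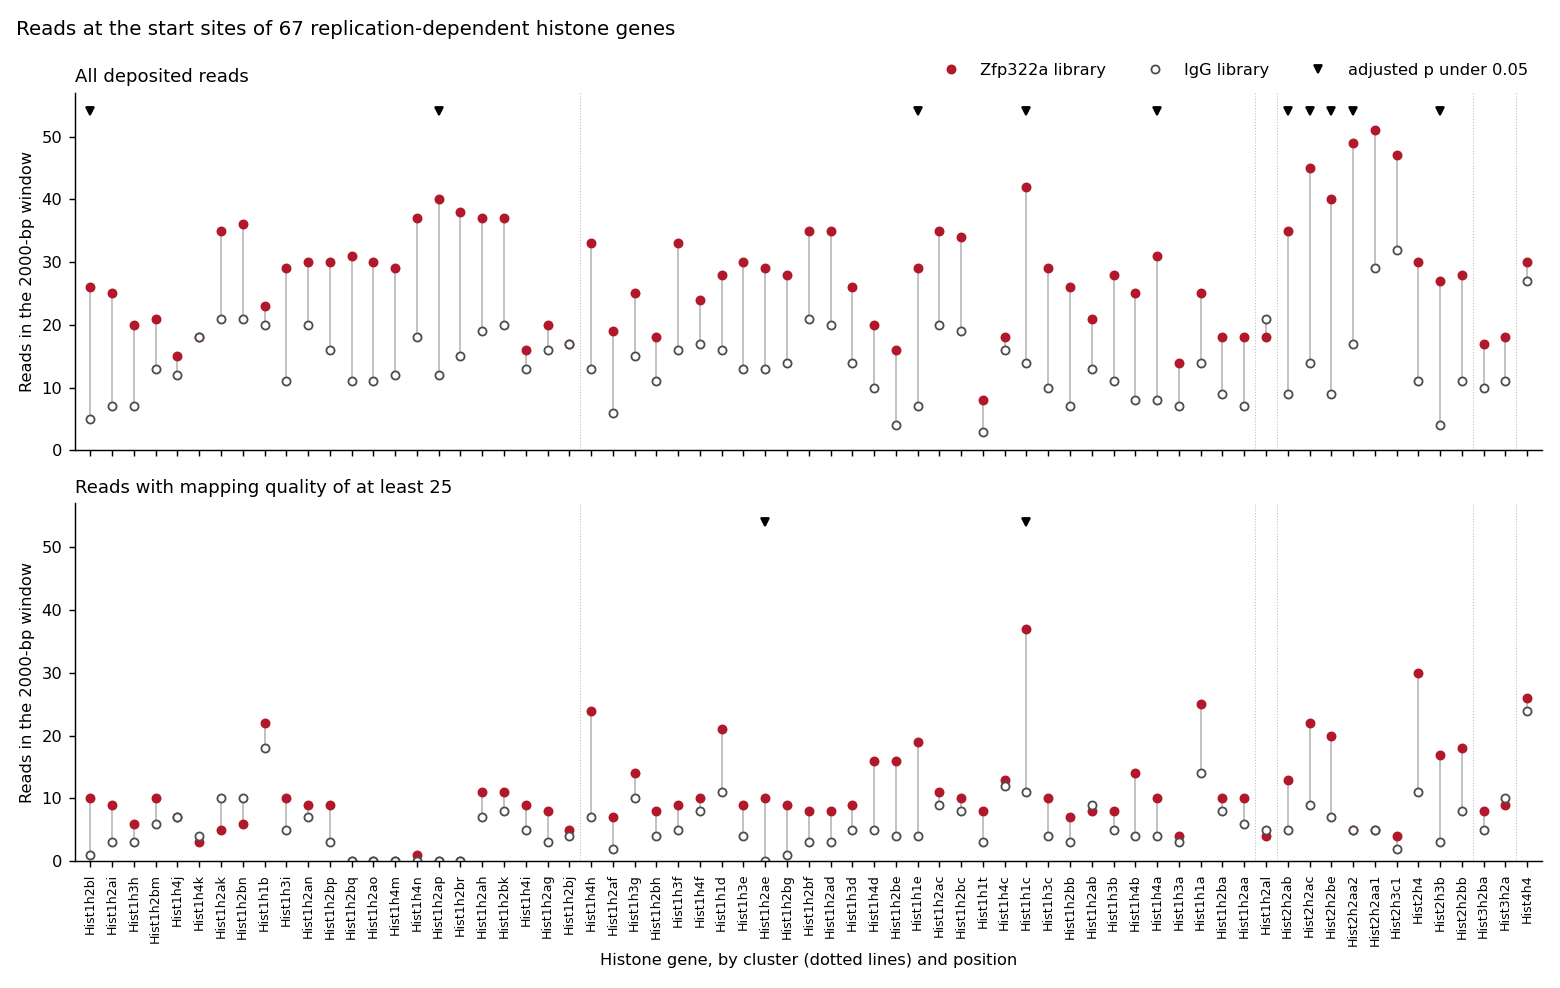
Reads in the window of 2000 bp around the TSS (y axis) of each of the 67 members (x axis, in order of cluster and position, clusters parted by dotted lines), with all reads above and reads of mapping quality of at least 25 below; filled points are the Zfp322a library, open points the IgG library, and triangles mark an adjusted p under 0.05. With all reads 10 members are marked, 5 of them in Hist2; with the stricter reads 2 are marked, and 5 members of the first Hist1 segment fall to 0 reads in both libraries.

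The Hist2 cluster had the highest fold of the clusters. Its merged windows held 231 Zfp322a and 97 IgG reads, a fold of 2.22 (1.75 to 2.85), and the fold was 2.11 (1.45 to 3.12) with reads of mapping quality of at least 25. Both intervals overlapped those of the second Hist1 segment, 1.98 (1.72 to 2.29) with all reads and 1.94 (1.59 to 2.37) with the stricter reads. Hist2h2be, which encodes H2B, had 40 Zfp322a and 9 IgG reads, a fold of 4.15 (adjusted p = 0.00217, exact binomial test). Its head-to-head neighbour Hist2h2ac, an H2A gene, had 45 and 14 reads (adjusted p = 0.00776, exact binomial test). Hist2h2ab, the next H2A gene, had 35 and 9 reads (adjusted p = 0.0104, exact binomial test). These windows overlap one another, so the calls rest in part on the same reads. Of the stricter reads Hist2h2be had 20 and 7, Hist2h2ac 22 and 9 and Hist2h2ab 13 and 5 reads, and none of the 3 was called (adjusted p = 0.171, 0.256 and 0.384, exact binomial test). Hist2h3b, an H3 gene, had 27 Zfp322a and 4 IgG reads, which was the highest fold of all members at 6.30 (2.20 to 24.8; adjusted p = 0.00385, exact binomial test). It had 17 and 3 of the stricter reads and was then not called (adjusted p = 0.0525, exact binomial test), and no Hist2 member was called with these reads. Hist2h2bb, an H2B gene beside it, had 28 and 11 reads and was not called (adjusted p = 0.145, exact binomial test). Hist2h4, an H4 gene with no read of mapping quality 0, had 30 and 11 reads with either set of reads and was not called (adjusted p = 0.0959 with all reads, exact binomial test).

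Hist2h2aa2 and Hist2h2aa1 are H2A genes that face each other as inverted copies, with 835 bp of 99.88% identity. The window of Hist2h2aa2 had 49 Zfp322a and 17 IgG reads and was called (adjusted p = 0.0127, exact binomial test). The window of Hist2h2aa1 had 51 and 29 reads and was not (adjusted p = 0.225, exact binomial test). The Zfp322a counts were close, while the IgG counts were not. With reads of mapping quality of at least 25 both genes had 5 Zfp322a and 5 IgG reads, so the fold of Hist2h2aa2 turned from 2.69 to 0.934. The neighbouring H3 gene Hist2h3c1 had the most IgG reads of all members, 32 against 47 Zfp322a reads, and 92.4% of its reads had a mapping quality of 0. Hist2h2aa1 with 29 and Hist4h4 with 27 IgG reads came next.

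A second and longer inverted duplication lies in the first Hist1 segment, where a block of 9783 bp with Hist1h2bq, Hist1h2ao and Hist1h4m is repeated with 1 mismatch as the block of Hist1h4n, Hist1h2ap and Hist1h2br. The promoter of Hist1h2bq and Hist1h2ao printed above occurs unchanged, as its reverse complement, in the other copy. The windows of Hist1h2ao, Hist1h2ap, Hist1h2bq, Hist1h2br and Hist1h4m held only reads of mapping quality 0. Hist1h2ap had 40 Zfp322a and 12 IgG reads and was called (adjusted p = 0.0112, exact binomial test). Its counterpart Hist1h2ao had 30 and 11 reads and was not called (adjusted p = 0.0959, exact binomial test). The first copy of the block held 73 Zfp322a and 25 IgG reads and the second 84 and 36. Since the copies cannot be told apart, the call at one and its absence at the other are no difference between the genes. With both copies summed, the H2A pair had 70 Zfp322a and 23 IgG reads, a fold of 2.84 (1.75 to 4.77). The H2B pair Hist1h2bq and Hist1h2br had 69 and 26 reads, and the H4 pair Hist1h4m and Hist1h4n had 66 and 30. In that setting, chosen after the data had been seen, each of these summed pairs and that of Hist2h2aa1 and Hist2h2aa2 was called.

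The H1 genes differ from the core histone genes in that most of their sequence is unique, and only 14.2% of the Zfp322a and 13.5% of the IgG reads in their windows had a mapping quality of 0. Together these windows held 155 Zfp322a and 74 IgG reads, a fold of 1.96 (1.47 to 2.62), and with the stricter reads the fold was 2.02 (1.48 to 2.79). Hist1h1c had 42 Zfp322a and 14 IgG reads, a fold of 2.80 (1.5 to 5.55; adjusted p = 0.0168, exact binomial test). With reads of mapping quality of at least 25 it had 37 and 11 (adjusted p = 0.0153, exact binomial test). Hist1h1e had 29 and 7 reads (adjusted p = 0.0213, exact binomial test), and 19 and 4 with the stricter reads (adjusted p = 0.0532, exact binomial test). The other H1 genes had lower folds and were not called. Hist1h1a, with no read of mapping quality 0, had 25 Zfp322a and 14 IgG reads. Hist1h1d had 28 and 16, and Hist1h1b 23 and 20. Hist1h1t, the testis form of H1, had the fewest reads of all members, 8 and 3.

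In Hist1, 2 core histone genes were called beside Hist1h2ap. Hist1h2bl, an H2B gene, had 26 Zfp322a and 5 IgG reads, a fold of 4.86 (1.83 to 16.2; adjusted p = 0.0112, exact binomial test). Hist1h4a, an H4 gene, had 31 and 8 reads, a fold of 3.62 (1.63 to 9.11; adjusted p = 0.0198, exact binomial test). With the stricter reads they had 10 and 1, and 10 and 4, and neither was called. The nearest member beyond the threshold was Hist1h2bb, an H2B gene with 26 and 7 reads (adjusted p = 0.0507, exact binomial test). Hist1h2be also needs a remark, because its annotated TSS lies 35168 bp from its coding sequence, next to Hist1h1e. The window there had 16 Zfp322a and 4 IgG reads, while around its first coding base there were 21 and 14. Hist1h3a, an H3 gene, was with Hist1h1t and Hist1h2be among the 3 members with the fewest reads, 14 and 7.

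At the other end, the lowest folds were spread over the clusters. The lone H2A gene Hist1h2al had 18 Zfp322a and 21 IgG reads, a fold of 0.800 (0.402 to 1.58). The H2B gene Hist1h2bj had 17 reads and the H4 gene Hist1h4k 18 reads in each library. Hist1h4c, another H4 gene, had 18 and 16, and Hist4h4, the only Hist4 member, had 30 and 27. Hist4h4 had few reads of mapping quality 0 (3.51%) and kept 26 and 24 reads at mapping quality of at least 25. The Hist3 genes had few reads, with 17 and 10 at the H2B gene Hist3h2ba and 18 and 11 at the H2A gene Hist3h2a. No difference was detectable at this depth for any of these genes.

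Restriction to reads of mapping quality of at least 25 left 559 Zfp322a and 315 IgG reads in the merged member regions, a fold of 1.66 (1.44 to 1.91), against 1.4 (1.39 to 1.4) for the other genes. The median fold over the members, with 0.5 read added to each count, was 1.61, against 1.25 over all windows. Both medians include windows with too few such reads to test. Of the members, 13 had fewer than 10 such reads and could not be tested, among them 5 with 0 reads in both libraries. Of the 54 tested, 2 were called higher, or 3.70%, against 5.12% of all windows tested. At an unadjusted p under 0.05, 13 were higher, again without a share over all windows. The calls were Hist1h1c and the H2A gene Hist1h2ae, which had 10 Zfp322a and 0 IgG reads. Taking 3 reads in place of 0, its reads were at least 3.11-fold higher in the Zfp322a library, a value that leaves out the counting error of the 10 reads, and the 95% interval of its fold began at 2.09 (adjusted p = 0.0432, exact binomial test), while with all reads it had 29 and 13 and was not called. Of the 10 members called with all reads, 9 could be tested, 8 of these had a fold above 1 and 1 was called.

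The reads of mapping quality 0 were also counted alone. In the merged member regions there were 682 Zfp322a and 327 IgG reads of this kind, a fold of 1.95 (1.70 to 2.23), whose interval overlaps that of the stricter reads, while in the windows of other genes the same reads had a fold of 1.05 (1.04 to 1.07) and in the whole libraries of 1.0 (1.0 to 1.01). These reads were higher in the Zfp322a library over the histone genes as a family, but their gene of origin is unknown.

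The class folds overlapped. For the merged windows the fold was 2.05 (1.68 to 2.53) at H3, 1.99 (1.70 to 2.33) at H2B, 1.96 (1.47 to 2.62) at H1, 1.88 (1.63 to 2.18) at H2A and 1.66 (1.38 to 2.0) at H4 genes. Every one of these intervals overlapped every other. With the stricter reads the order was H1 at 2.02, H3 at 1.91, H2B at 1.86, H4 at 1.67 and H2A at 1.45 (1.11 to 1.90), again with overlapping intervals.

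The start of histone transcription units is followed within a few bases by coding sequence, with a median distance of 36 bp. With all reads the counts lay mainly there, 762 Zfp322a and 370 IgG reads against 592 and 327 in the rest of the windows. Of the stricter reads, 149 and 80 lay in the 26793 bp of coding sequence and 414 and 237 in the 75027 bp outside it. With all reads summed over the windows, Zfp322a reads were densest from 200 to 300 bp after the TSS, with 3.16 reads per gene in 100 bp. IgG reads were densest from 0 to 100 bp, with 1.69. In these bins 86.0% and 41.0% of the reads of both libraries together had a mapping quality of 0. At the other protein-coding genes both libraries were densest from 0 to 100 bp, with 1.25 and 0.751. In bins of 100 bp the fold at the histone genes ran from 1.32 to 3.10, and in parts of 500 bp it was nearly level. It was 1.90 (1.56 to 2.33) from -1000 to -500 bp, 1.88 (1.57 to 2.25) from -500 to 0, 1.85 (1.64 to 2.08) from 0 to 500 and 2.0 (1.63 to 2.47) from 500 to 1000 bp. In the same order it was 1.71, 1.70, 1.59 and 1.87 with the stricter reads. At the other genes, with all reads, it was 1.19 and 1.24 in the outer parts and 1.44 and 1.45 in the inner parts. The fold thus rose towards the TSS at the other genes and not, in these parts, at the histone genes, whose outer parts often belong to a neighbouring histone gene. A read in overlapping windows was counted for each of them here, so these intervals are narrower than distinct reads would give.

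**Figure D2:**
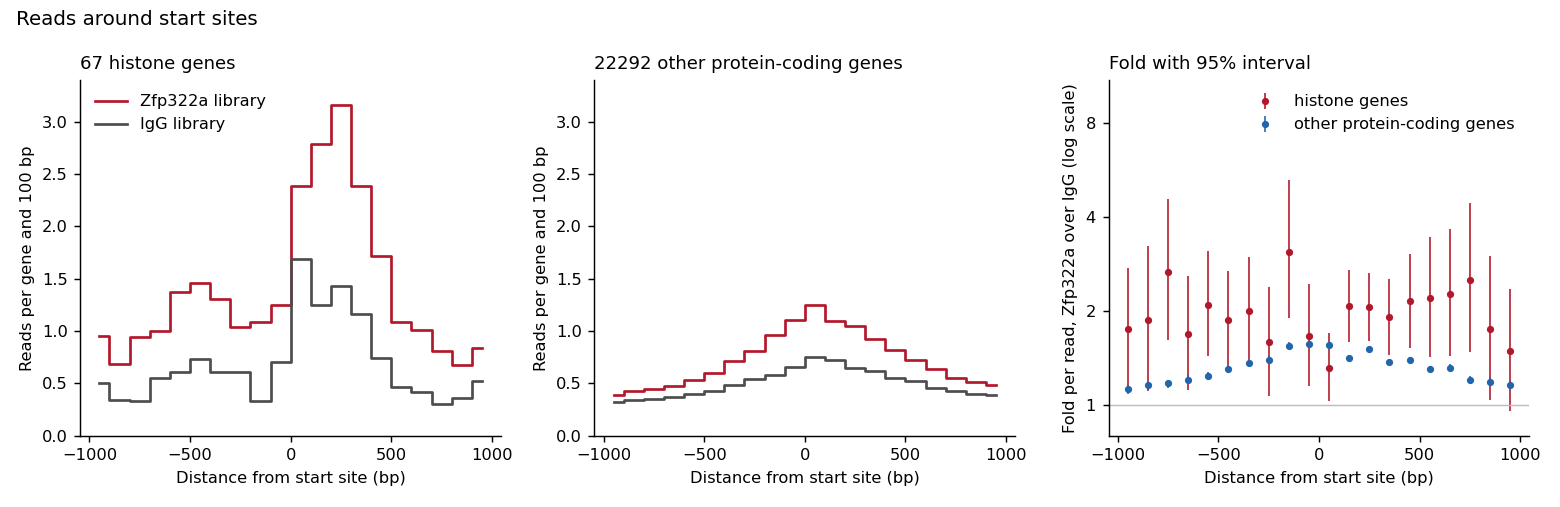
Reads per gene in bins of 100 bp by distance from the TSS in the Zfp322a and IgG libraries, for the 67 members (left) and the 22292 other protein-coding genes (middle), and the fold per read of each bin with its 95% interval on a log scale (right). With all reads, as drawn here, both libraries rise after the TSS at the members, to 3.16 and 1.69 reads. At the members the fold stays between 1.32 and 3.10 over the window. At the other genes it is highest near the TSS at 1.57.

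With all reads, the counts stood highest within coding sequence, in both libraries. The 26793 bp of member coding sequence held 762 Zfp322a and 370 IgG reads, or 28.4 and 13.8 reads per kb, against 4.92 and 4.03 per kb in the coding sequence of the other genes. The fold was 1.92 (1.70 to 2.18), against 1.14 (1.13 to 1.15). These contrasts set unlike positions side by side. Member coding sequence started a median of 36 bp from the TSS, while that of other genes was counted at any distance from it. From 0 to 500 bp after the TSS the fold was 1.85 (1.64 to 2.08) at members and 1.45 (1.44 to 1.47) at other genes. H4 coding sequence had the densest reads, 35.6 Zfp322a and 21.2 IgG reads per kb, and with that the lowest fold of the classes, 1.57 (1.19 to 2.08). H3 coding sequence had the highest, 2.33 (1.69 to 3.26). Of the reads in member coding sequence, 70.9% of the Zfp322a and 68.6% of the IgG reads had a mapping quality of 0, against 9.78% and 10.6% at other genes. With the stricter reads 149 and 80 remained, a fold of 1.74 (1.32 to 2.31), and in H3 coding sequence there were 3 in each library. The part of the member windows outside coding sequence, where 26.4% of the Zfp322a reads had a mapping quality of 0, had a fold of 1.69 (1.47 to 1.94), and 1.63 (1.39 to 1.92) with the stricter reads. The higher Zfp322a reads were not confined to coding sequence.

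**Figure D3:**
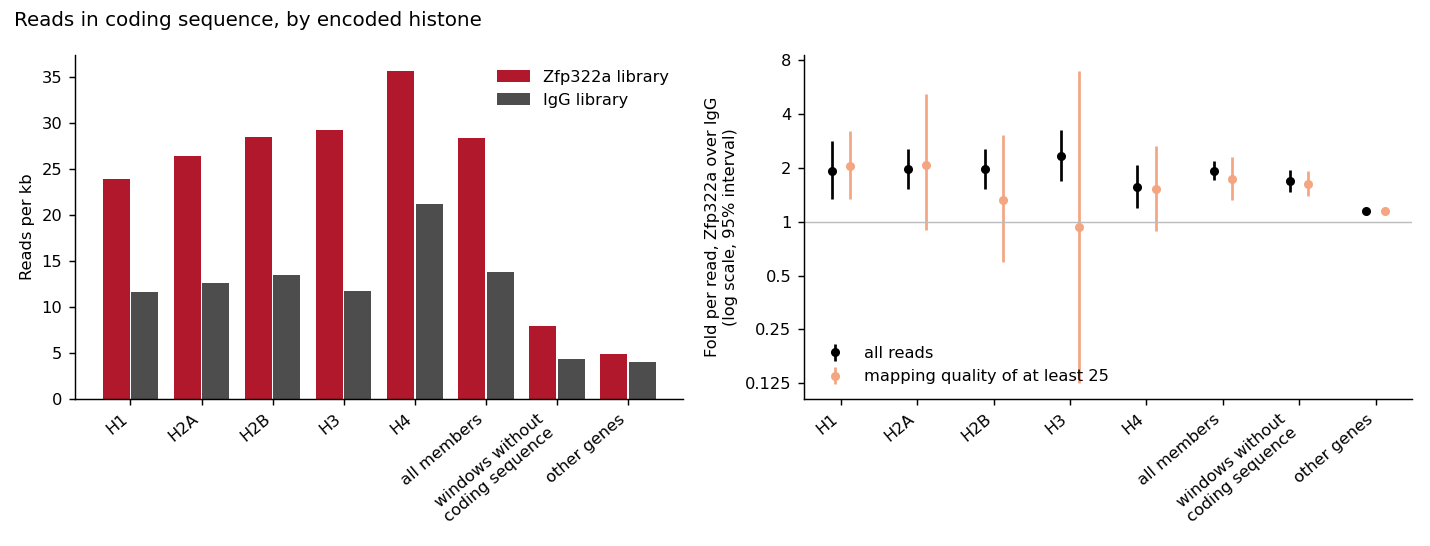
Left, reads per kb of coding sequence in the Zfp322a and IgG libraries for each histone class, all members, the member windows without coding sequence and all other protein-coding genes; right, the fold per read with its 95% interval on a log scale, with all reads and with reads of mapping quality of at least 25. Member coding sequence holds 28.4 and 13.8 reads per kb and that of other genes, at any distance from the TSS, 4.92 and 4.03. At H3 the stricter reads leave 3 reads in each library and a wide interval.

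Putative binding sites were stretches where reads extended to 300 bp were at least 9 deep in the Zfp322a library and exceeded the IgG depth there at least 3-fold. Of the 67 member windows 20 overlapped such a site (29.9%), against 11.7% of all protein-coding windows. Among the other protein-coding windows with at least 10 reads the share was 15.2%. A Zfp322a height of at least 9 was reached at 58 members, and the share of all windows that reached it was not counted. Member windows held more reads than most, and a comparison at like depth was not made. The 20 member windows shared 14 sites, of which 9 had their middle in coding sequence. The lowest site was 9 and the highest 19 reads high (median 12), and 4 of the 14 reached only 9 or 10. The site with the highest fold lay in the coding sequence of Hist2h2ac (chr3:96024428-96024825), within the windows of Hist2h2ab, Hist2h2ac and Hist2h2be, with peak heights of 18 and 1. Its end reaches into the first promoter printed above. At a mapping quality of at least 25 its heights were 5 and 1. Hist2h2aa2 had a site 774 bp after its TSS with heights of 19 and 5, and Hist1h3i, an H3 gene, one of 19 and 6 in its coding sequence. Hist2h4 had a site with heights of 10 and 1, and Hist2h3b and Hist2h2bb shared one of 9 and 0 that was only 12 bp long.

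The remaining sites were in Hist1. Hist1h2be and Hist1h1e shared a site over the coding sequence of Hist1h1e with heights of 13 and 3, and Hist1h4a had one of 13 and 3 over its TSS. Hist1h2bq and Hist1h2ao shared a site of 13 and 4 in the duplicated block, while no stretch at Hist1h2ap and Hist1h2br in the other copy met the criteria. At the H2B gene Hist1h2bb the heights were 12 and 1, at the H2A gene Hist1h2af 12 and 3, at the H3 gene Hist1h3b 12 and 4 and at the H3 gene Hist1h3h 11 and 3. Hist1h2bl and the H2A gene Hist1h2ai shared a site of 9 and 3 that was only 1 bp long and just met both criteria. Hist1h1a had a site of 9 and 3 across its TSS. Of the 14 sites 2 kept a height of at least 9 with the stricter reads, those of Hist2h4 and Hist1h1a. Sites called from the stricter reads alone overlapped 5 member windows, those of Hist1h1a, Hist1h1b, Hist1h1c, Hist1h4h and Hist2h4, or 7.46% against 11.3% of all windows. The regions deposited by the authors overlapped 7 member windows, against 3.07% of all windows. There were 4 such regions, at Hist1h3i (chr13:21874688-21875446), at Hist1h2ap and Hist1h2br (chr13:21925721-21926260), at Hist1h2be and Hist1h1e (chr13:23713679-23714503) and at Hist1h4a and Hist1h3a (chr13:23852786-23853266). The region at Hist1h2ap and Hist1h2br is the copy of the duplicated block in which the criteria used here found no site.

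The Hist1 segments flank Zfp322a itself on chromosome 13. Zfp322a (chr13:23444972-23461077, minus strand) encodes the zinc finger protein under study, and its gene lies 161841 bp from the first gene of the second segment and 1309426 bp from the last gene of the first. The first segment (chr13:21806632-22136545) held 1347 Zfp322a and 847 IgG reads, a fold of 1.48 (1.36 to 1.62), and the second (chr13:23621919-24027720) held 1428 and 950 reads, a fold of 1.4 (1.29 to 1.53). Between them the fold was 0.915 (0.867 to 0.965), and over the whole chromosome 0.981 (0.976 to 0.987). With the stricter reads the segments had folds of 1.30 (1.17 to 1.46) and 1.32 (1.20 to 1.45). Zfp322a had 14 Zfp322a and 8 IgG reads in its own TSS window and was not called (adjusted p = 0.665, exact binomial test).

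Inside the segments, the histone windows had folds of 1.64 (1.39 to 1.94) and 1.98 (1.72 to 2.29). The sequence of the segments outside these windows had 1.43 (1.29 to 1.58) and 1.15 (1.04 to 1.28). The higher reads of the first segment were thus spread over the segment, and the interval of its windows overlapped that of the rest, while in the second segment the intervals did not overlap. With the stricter reads the windows of the first segment had a fold of 1.25 (0.928 to 1.70), those of the second 1.94 (1.59 to 2.37), and the sequence outside 1.31 (1.17 to 1.48) and 1.15 (1.03 to 1.29). The 10 non-histone protein-coding genes with a TSS inside the segments held 92 Zfp322a and 53 IgG reads in their windows, a fold of 1.62 (1.14 to 2.32). Of the 5 that could be tested 0 were called, against 4.71% of all windows tested, and 5 are too few to compare with that share. In steps of 20 kb, the 16 bins with a histone TSS held 56 to 143 Zfp322a reads (median 101.0) and 40 to 84 IgG reads (median 60.5), while the 100 bins without one had medians of 32.5 and 33.0. The highest of the latter, with 195 and 152 reads, was at the gene body of Zfp322a, which stood high in both libraries, with 12.1 and 9.06 reads per kb.

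**Figure D4:**
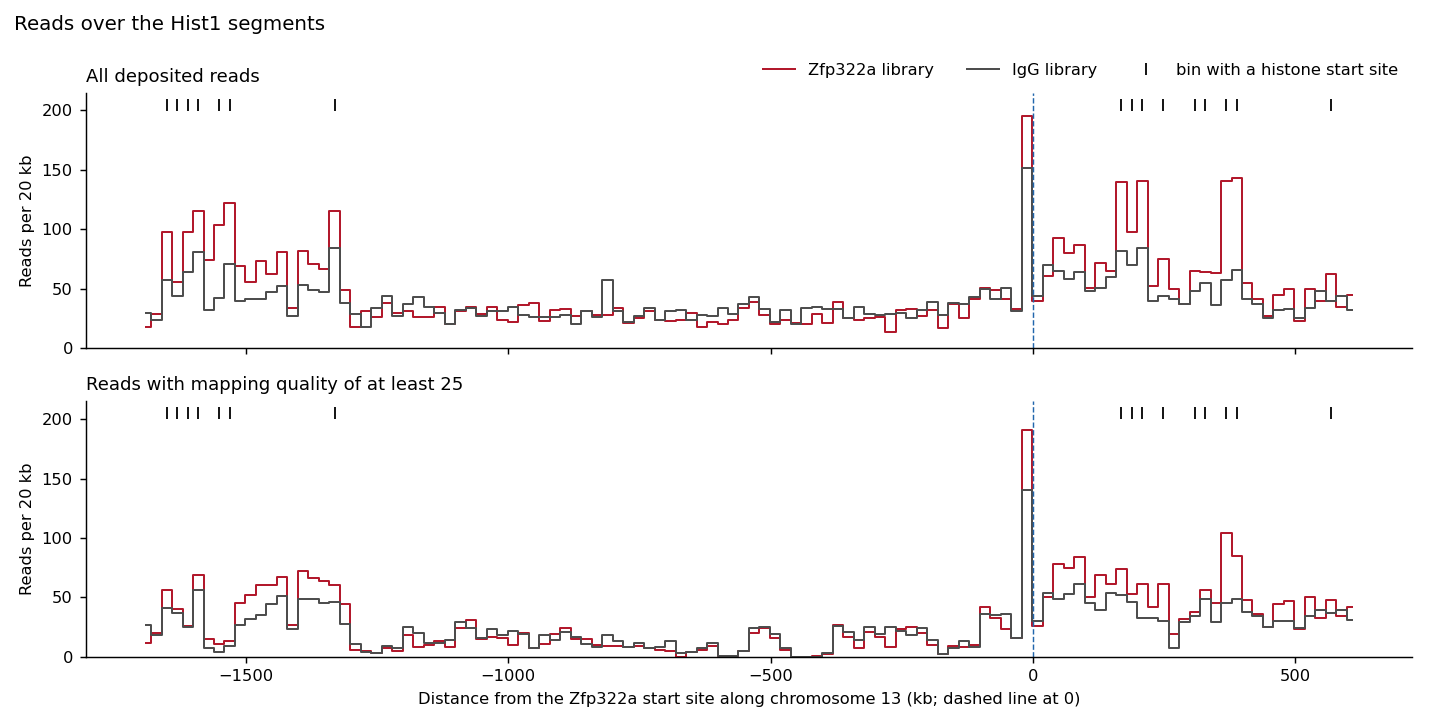
Reads per 20 kb along chromosome 13 by distance in kb from the TSS of Zfp322a (dashed line), with all reads above and with reads of mapping quality of at least 25 below; ticks mark bins that hold a histone TSS. The bins with a histone TSS hold 56 to 143 Zfp322a and 40 to 84 IgG reads, the stretch between the segments has about equal counts in the libraries, and the highest bin, with 195 and 152 reads, is that of the Zfp322a gene.

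Folds at the other genes differed with the GC content of the window, so the members were also set beside other genes of like GC content. Of the members, 31 had windows of 45 to 50% GC and 27 of 50 to 55%. In the first class the summed fold was 1.81 (1.59 to 2.07) for members and 1.34 (1.32 to 1.36) for the other 4690 genes. In the second it was 2.06 (1.77 to 2.40) and 1.45 (1.43 to 1.46), with 5795 other genes. In the class of 40 to 45% it was 1.51 (1.16 to 1.99) for 7 members and 1.05 (1.03 to 1.08) for 2879 other genes. Restricted to the stricter reads, the members had folds of 1.66 (1.37 to 2.0), 1.89 (1.47 to 2.43) and 1.54 (1.04 to 2.31) in these 3 classes, and the other genes 1.37, 1.46 and 1.08. In these sums a read in overlapping windows counts for each of them, so their intervals are narrower than distinct reads would give.

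Histone variants that can be made outside S phase formed another list, chosen by symbol. Of these 10 genes, 1 was called higher, against 4.71% of all windows tested, and 10 genes are too few to compare with that share. H2afx, whose product is phosphorylated at DNA breaks and whose mRNA can also end in a stem-loop, had 57 Zfp322a and 13 IgG reads (adjusted p = 1.21e-04, exact binomial test), and 43 and 8 with the stricter reads. H2afy, which encodes macroH2A, had 32 and 17 reads, the linker variant H1fx 31 and 20, and H2afv 17 and 10, and these were not called. Together the 10 windows had a fold of 1.56 (1.27 to 1.94), and 8.23% of their Zfp322a reads had a mapping quality of 0. A putative binding site overlapped 4 of the 10 windows, against 11.7% of all windows, and 3 with the stricter reads, against 11.3%. The list is too short to compare with these shares, and no comparison at like depth was made. Of 20 genes for histone gene transcription and pre-mRNA processing, 0 were called, with a summed fold of 1.51 (1.29 to 1.76). A list of 20 genes is too short to set 0 calls apart from the 4.71% of all windows tested. A putative binding site overlapped 5 of these 20 windows with either set of reads, against the same 11.7% and 11.3% of all windows. This list is also too short to compare with these shares, and depth was not matched. Npat, the coactivator of the histone genes, had 29 and 11 reads (adjusted p = 0.119, exact binomial test). Hinfp, which binds H4 promoters, had 31 and 14, Cpsf3, the endonuclease that cleaves histone pre-mRNA, 18 and 7, and Lsm10, a part of the U7 particle, 21 and 9.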

How the data were processed

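Chromatin immunoprecipitated from E14 cells was sequenced as 36-bp reads. Submitters' processing notes name CASAVA 1.4, BWA and Partek 6.6 and the build mm9; mapping options are not given in the sources used here. For peak detection the authors set a fragment size of 300 bp, a Mann-Whitney U test cutoff of 0.05 for the separation of strands, a 3-fold ratio of peak heights and a height of 9 reads. That strand test was not applied here. The authors deposited mapped reads with a mapping quality score from BWA, and, for numbered regions of their peak detection, the positions of the reads inside them. The chromosomes of the genome and GENCODE vM1 annotation used here matched the reads. With Python 3.11.15, numpy 2.4.6, pandas 2.3.3 and scipy 1.17.1, 5′ ends were counted in windows of 2000 bp around 1 TSS for each gene, that of the protein-coding transcript with the longest coding sequence. The libraries held 5187475 (Zfp322a) and 4843481 (IgG) reads, so that a window of 28 reads rests on few fragments. Folds were scaled by library totals and carry exact conditional binomial intervals. Copies of each 36-base stretch were counted on both strands of mm9. The tests were also run on simulated data.

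The members and lists were chosen with earlier results of these data known. Named were the 10 members with the smallest adjusted p and a fold above 1, the 5 with the lowest fold among those with at least 20 reads, members with a site, Hist3 and Hist4 members, the 5 with the largest share of mapping quality 0, the 3 with fewest and the 3 with most IgG reads, Zfp322a, and up to 4 genes of each other list; other genes were named after their values were seen. H1f0 of the variant list was not analysed here. Alternatives were stricter reads, other windows, TSSs, scalings, site criteria and fragment sizes; stricter reads together with promoter scaling, summed copies and windows around the first coding base were chosen after seeing the data.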

Additional observations from a re-analysis of the deposited data

How the results depend on the processing

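With all reads 10 histone windows were called (median fold 1.82), against 4.71% of all windows tested. With mapping quality of at least 25 they were 2 (median fold 1.61), against 5.12%. Windows of -500 to +500 bp gave 5, against 5.11%. Scaling by reads in all protein-coding TSS windows gave 0 (median fold 1.36), against 0.571%. With that scaling and mapping quality of at least 25 together, chosen after seeing the data, 0 were called, against 0.432%. The median fold was then 1.16 against 0.897 over all windows. The count was 10 with 5′ ends moved, with the most 5′ TSS, with no minimum of reads, around the first coding base and over 40 merged regions. It was 12 of 63 with duplicated copies summed. Under these settings 3.02% to 4.76% of all windows tested were called. The 20 windows with a putative binding site, against 11.7% of all windows, became 5 with mapping quality of at least 25, against 11.3%. They became 7 where the Zfp322a height had to be 5 times that of IgG, against 4.57%. With a window of -1000 to +100 bp they were 11, against 8.86%. Under the other 4 settings they were 14 to 20, against 7.52% to 9.51%. None of these site shares was compared at like depth. The fold over the chromosome 13 segments (1.43) ran from 1.28 to 1.47 and that over coding sequence (1.92) from 1.69 to 1.74. As a median over windows the share of mapping quality 0 was 53.8% in the Zfp322a library. Among the named genes, the fold of Hist2h2aa2, which had been called, reversed to 0.934 with mapping quality of at least 25, and to 0.669 with promoter scaling added. Folds of uncalled genes crossed 1 as well: with mapping quality of at least 25 those of Hist2h2aa1 (0.934) and Hist3h2a (0.845), with promoter scaling those of Hist4h4 (0.771) and Hist1h4c (0.779), and with both changes all 4 of these. With 5′ ends moved, 3 folds near 1 crossed it, those of Hist1h2bj, Hist1h4c and Hist1h4k. The cause of these changes was not tested. Depth limits the calls: windows of 28 and 13 reads allow only large folds to pass. No paired analysis was possible because there was 1 library for each antibody, and for the same reason no library could be left out.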

Other observations

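Among the bins of 100 bp around the histone TSSs, that from -200 to -100 bp, chosen here after the values were seen, had the highest fold, with 73 Zfp322a and 22 IgG reads and a fold of 3.10 (95% interval 1.90 to 5.24), and 3.54 with reads of mapping quality of at least 25. The same bin at the other protein-coding genes had a fold of 1.55 (1.52 to 1.59). The next bin, from -100 to 0 bp, had 84 and 47 reads and a fold of 1.67 (1.15 to 2.44) at the histone genes, which overlaps the interval of the first bin. The bin from 0 to 100 bp, also picked after the values were seen, had the lowest fold. It held 160 and 113 reads, a fold of 1.32 (1.03 to 1.70), whose interval lies below that of the bin from -200 to -100 bp. A read in overlapping windows counts for each of them in these bins, so the intervals are narrower than distinct reads would give.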
